A study of Homo sapiens with 40 samples.

Results

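The zinc finger cluster at 19q13.41 is a run of zinc finger (ZNF) genes on human chromosome 19, and 38 of them, from ZNF577 to ZNF331, were examined here. They were chosen by symbol among the 62486 gene identifiers of the RNA-seq count table, and all 38 were found there. Peaks and Hi-C bins were taken from chr19:52000001-54300000 on GRCh37 (hg19), a window of 2.3 Mb. Control cells were A549, an established line from a human lung adenocarcinoma, and knockout (KO) cells were A549 in which CRISPR/Cas9 had disrupted SETDB1. Both genotypes share the A549 background and culture conditions, and the labels do not say whether the KO cells were a single clone or a pool. Each genotype had 3 RNA-seq libraries, 2 Hi-C libraries and 2 ChIP-seq libraries for each of CTCF, H3K4me3, H3K27ac, H3K27me3 and H3K9me3. Nothing in the labels says that replicates came from separate cultures, so p-values measure the spread between these libraries, which may be technical.

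Most genes of such clusters encode proteins with a run of DNA-binding zinc fingers and, at the other end, a KRAB domain. KRAB domains recruit TRIM28 (KAP1), which brings in SETDB1, an enzyme that methylates histone H3 at lysine 9. The resulting H3K9me3 marks repressed chromatin over many retroelements and also over the zinc finger clusters themselves. H3K27me3 is the repressive mark of the Polycomb system, H3K4me3 marks promoters, H3K27ac marks active promoters and enhancers, and CTCF is a DNA-binding protein found at many domain boundaries. In Hi-C data, compartment A holds mostly active and compartment B mostly inactive chromatin.

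The RNA-seq libraries held 18065062 to 48364919 counts. The SETDB1 transcript was at 38.6 ± 1.04 CPM (counts scaled to library size with TMM factors; SD, n = 3) in control and 21.9 ± 1.32 CPM in KO (log2 fold change -0.82, SE 0.060, edgeR adjusted p 1.7e-12). Transcript level does not measure the protein or the edited sequence. All 10 markers listed for the A549 epithelial line were counted in both genotypes, 7 of them higher and 3 lower in KO. Of all tested genes, 32.8% were higher and 30% lower. EPCAM, KRT8, KRT18, KRT19 and CDH1 were higher, by log2 fold changes of 0.95 (CDH1) to 2.49 (KRT19), as were ALDH1A1 and ALDH3A1. AKR1B10, AKR1C1 and NQO1 were lower. The 4 alveolar markers together summed to 1.15 to 1.66 CPM in control and 1.60 to 1.88 CPM in KO libraries. Of these only NAPSA could be tested, and it was higher in KO (0.917 ± 0.0593 to 1.33 ± 0.189 CPM, log2 fold change 0.56, edgeR adjusted p 0.0268). NKX2-1, SFTPB and SFTPC were under the low-count filter, NKX2-1 at 0 in control. The 7 markers of other cell types in the table summed to 3.42 to 3.54 CPM in control and 8.16 to 9.11 CPM in KO libraries, and 2 of them were at 0 throughout. Most of the control sum was COL1A1, at 3.10 ± 0.0756 CPM in control and 3.83 ± 0.269 CPM in KO (log2 fold change 0.30, edgeR adjusted p 0.0412). CDH5, an endothelial cadherin, was at 0.289 ± 0.0835 CPM in control and 4.53 ± 0.67 CPM in KO. PTPRC, the leukocyte antigen, was at 0.0326 CPM in control and 0 in KO. The part of these markers in the results below was not tested.

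All 35 members that could be tested were higher in KO cells, and 0 were lower (edgeR quasi-likelihood test, Benjamini-Hochberg adjusted p under 0.05 over 17767 genes). Among all tested genes, 32.8% were higher and 30% were lower. In each of the 35 members every KO library lay above every control library, against 34.1% of all tested genes. Of the members, 31 rose at least 2-fold (9.86% of all tested genes; 30 to 34 members over the alternatives) and 22 rose at least 16-fold (2.14%). The median log2 fold change was 5.81, against 0.0038 over all tested genes. Setting the 3 tested members uncounted in control at the value from a floor of 3 control counts left them above this median. The floor therefore could not move it. Only 17 members would have passed the low-count filter in the control libraries alone, with log2 fold changes of 0.42 to 7.50. The other 18 tested members passed through their KO counts and so had to differ, with 4.67 to 14.62. The median member, ZNF525, is one of these 18. This limits what the counts of members and their median can show. In bulk libraries, more cells expressing a gene and more RNA per cell cannot be told apart.

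**Figure D1:**
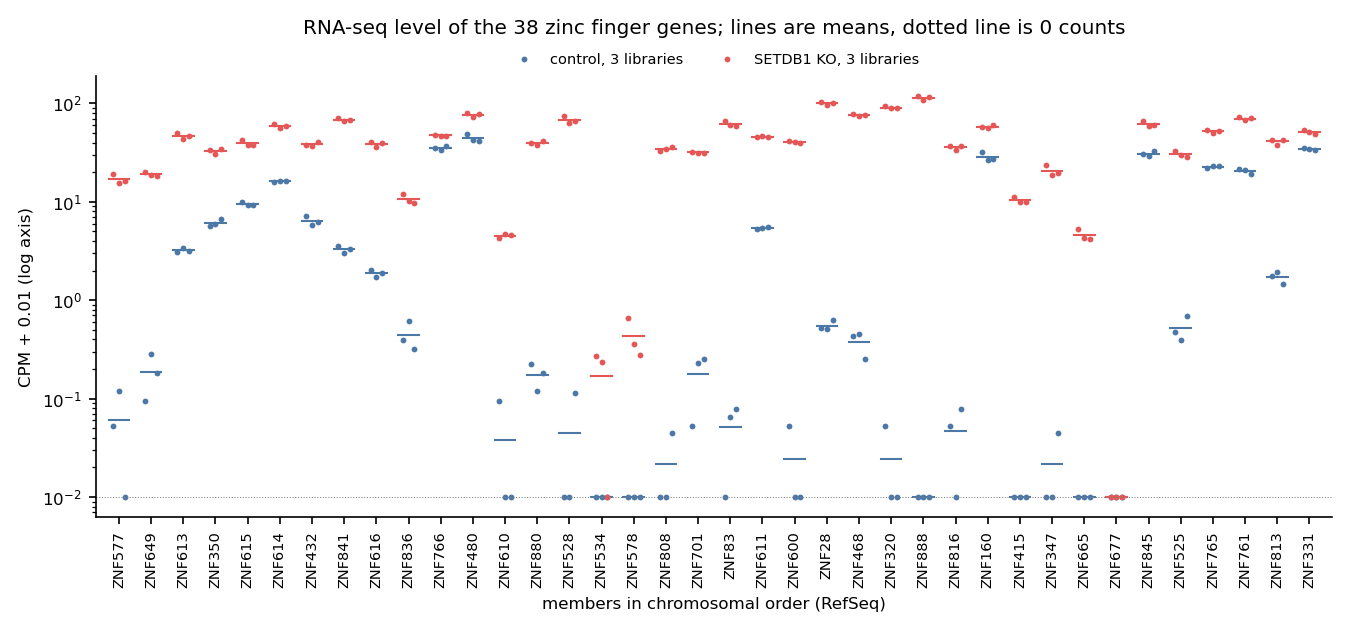
RNA-seq level of the 38 members in each of 3 control (blue) and 3 SETDB1 KO (red) libraries, in chromosomal order, as CPM plus 0.01 on a log axis, with short lines for the means and a dotted line for 0 counts. Red points lie above blue points in all 35 tested members, whereas control levels run from 0 to 44.4 CPM on average.

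Summed over the members, the level was 266 to 283 CPM in the control libraries and 1578 to 1703 CPM in the KO libraries. KO means of the tested members ran from 4.49 CPM (ZNF610) to 114 CPM (ZNF888). CPM is not scaled by transcript length, so these levels order libraries within a gene, not genes.

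The 10 members with the largest fold changes were almost uncounted in control cells. ZNF888 had 0 counts in all 3 control libraries and 118, 109 and 115 CPM in the KO libraries. The fitted change was 14.62 on the log2 scale (SE 0.18, edgeR adjusted p 4.2e-28), the 2nd largest of all genes tested. Because a fitted value against 0 counts depends on the prior count, the value from a floor of 3 counts over the control group was taken as well. By this floor ZNF888 was 2663-fold higher, with a lower counting limit of 2165-fold. ZNF415 and ZNF665 were likewise uncounted in all control libraries. In the KO libraries ZNF415 was at 11.1, 9.90 and 10.0 CPM (fitted log2 fold change 11.15, SE 0.37, edgeR adjusted p 2.6e-19). By the same floor ZNF415 was 241-fold higher, with a lower counting limit of 196-fold. ZNF665 was at 5.28, 4.24 and 4.14 CPM in KO (9.96, SE 0.50, edgeR adjusted p 2.2e-15). Its floor value was 105-fold, with a lower counting limit of 85.4-fold. These genes passed the low-count filter only through their KO counts, so the separation of the genotypes had to appear. Only the lower limit of the change is known.

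ZNF320 had 1 count in the control libraries together, in the first of them (0.0425 CPM), and 93.0, 89.2 and 90.1 CPM in the KO libraries. On the log2 scale it rose by 12.25 (SE 0.16, edgeR adjusted p 5.3e-29), the 7th largest of all genes. The pooled ratio was 6394, with a 95% counting interval of 1147 to 252575, so its size is known only roughly. Without the first control library the fitted log2 value was 14.33.

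ZNF600 had 0.0425, 0 and 0 CPM in control and 41.5, 40.5 and 39.2 CPM in KO (log2 fold change 11.08, SE 0.20). ZNF808, whose loss is known to disturb pancreas development, had 0, 0 and 0.0344 CPM in control and 33.1, 34.2 and 35.6 CPM in KO (10.84, SE 0.21). Both had a single control count, so leaving out the library that held it raised the values to 13.16 and 12.87. ZNF347 had 0, 0 and 0.0344 CPM in control and 23.5, 18.8 and 19.8 CPM in KO (10.10, SE 0.28, and 12.13 without the third control library). ZNF528 had 0, 0 and 0.103 CPM in control and 74.3, 62.7 and 66.2 CPM in KO (10.49, SE 0.20, and 13.85 without the third control library). The control counts of these 4 genes each came from 1 library.

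ZNF83 had 0, 0.0552 and 0.0687 CPM in control and 66.0, 60.9 and 59.1 CPM in KO (log2 fold change 10.37, SE 0.17). ZNF816 had 0.0425, 0 and 0.0687 CPM in control and 36.5, 33.6 and 37.3 CPM in KO (9.57, SE 0.19). Without the third control library these were 11.08 and 10.28. Over the 10 genes the edgeR adjusted p was at most 2.2e-15, and no control library came near any KO library. The 10 were chosen by fold change and passed the low-count filter only through KO counts, so such a gap had to appear.

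ZNF28 differed from these in being counted in every control library. It was at 0.510, 0.497 and 0.618 CPM in control and 104, 96.2 and 102 CPM in KO, with means of 0.542 ± 0.0667 and 101 ± 3.92 CPM (SD, n = 3). On the log2 scale it rose by 7.50 (SE 0.10, edgeR adjusted p 5.1e-29), and over every alternative it stayed between 7.45 and 7.62. The control level was 0.539% of the KO level.

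Among the other members that rose at least 16-fold, ZNF880, ZNF468 and ZNF701 had log2 fold changes of 7.82, 7.74 and 7.51. ZNF649, reported elsewhere as a repressor of growth-factor signalling, rose by 6.78, from 0.178 ± 0.0957 to 19.1 ± 0.919 CPM. ZNF577 (8.48) and ZNF610 (7.11) had 3 and 2 control counts in all. Leaving out a control library moved ZNF577 to between 7.77 and 9.49, and ZNF610 to between 6.43 and 10.01. ZNF525, ZNF836, ZNF813, ZNF841 and ZNF616 rose by 5.81, 4.67, 4.61, 4.37 and 4.35 on the log2 scale. All of these were under 5% of their KO level in control.

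A further 13 members were readily counted in control cells and rose less. Between 4-fold and 16-fold higher were 5 of them: ZNF613, ZNF611, ZNF432, ZNF350 and ZNF615, with log2 fold changes of 3.86, 3.08, 2.57, 2.40 and 2.06. ZNF350, also known as ZBRK1, a repressor that binds BRCA1, went from 6.11 ± 0.55 to 32.7 ± 1.98 CPM. ZNF614, ZNF761, ZNF765 and ZNF160 rose between 2-fold and 4-fold (1.86, 1.77, 1.20 and 1.01). Under 2-fold higher were 4: ZNF845 (0.98), ZNF480 (0.79), ZNF331 (0.57) and ZNF766 (0.42). ZNF331, an imprinted gene, was at 35.1, 34.5 and 33.8 CPM in control and 53.2, 51.5 and 48.7 CPM in KO. ZNF160 and ZNF845 lay close to 2-fold, with log2 values of 0.97 to 1.11 and 0.93 to 1.03 over the alternatives. ZNF766 had the smallest change, from 35.3 ± 1.55 to 47.3 ± 0.855 CPM (SE 0.053, edgeR adjusted p 1.2e-07). Even in it the libraries of the genotypes did not overlap.

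Members with small and with large changes lay next to each other along the chromosome. ZNF766 and ZNF480 are followed by ZNF610, ZNF880 and ZNF528, and ZNF160 lies between ZNF816 and ZNF415. At the distal end, ZNF845, ZNF765 and ZNF761 were at 50.2%, 43.5% and 29.3% of their KO level in control, whereas ZNF525, which lies among them, was at 1.69%.

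The remaining 3 members were too low to test. ZNF534 had 17 counts and ZNF578 had 38 in the KO libraries together and 0 in control. By the floor they were at least 4.24-fold and at least 9.47-fold higher. ZNF677, reported as silenced by methylation in lung cancer, had 0 counts in all 6 libraries. Zinc finger genes are near-copies of each other, and how reads matching several genes were counted is not given in the sources used here, so the share of each gene in such reads is uncertain.

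Of 22 genes of the KRAB repression pathway listed for comparison, 9 were higher, 9 were lower and 4 were not called. SETDB1, the edited gene, is among the 9 lower. Of all tested genes, 32.8% were higher and 30% were lower, and the difference from these shares was not tested. TRIM28, the scaffold that KRAB domains bind, was at 599 ± 39.8 CPM in control and 575 ± 26.8 CPM in KO (log2 fold change -0.06, SE 0.047, edgeR adjusted p 0.301). ATF7IP, a partner that stabilises SETDB1, went from 65.2 ± 3.28 to 302 ± 12.7 CPM (log2 fold change 2.21, SE 0.048, edgeR adjusted p 2.0e-24). It was the only gene of the list with a change of at least 2-fold. CBX5, which encodes an HP1 protein that binds H3K9me3, was higher by 0.45, and CBX3, another, fell by 0.46. The H3K9 methyltransferase genes SUV39H1, SUV39H2 and EHMT2 fell by 0.30, 0.39 and 0.20, whereas EHMT1 was higher by 0.22.

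The members were set beside 3 other zinc finger clusters of chromosome 19. At 19p12 all 35 tested genes were higher, with a median log2 fold change of 9.13, or 6.78 with genes uncounted in control set at their floor value. At 19q13.12, 27 of 28 were higher and 1, ZNF146, was lower, with a median of 2.39. At 19q13.43, 32 of 37 were higher and 5 were not called, with a median of 1.32. Among all tested genes, 32.8% were higher and 30% were lower. At 19p12, 18 genes had no control count and 2 had 1 to 3, so at least these passed the low-count filter only through KO counts and had to differ. At 19q13.12, 2 genes had 1 to 3 control counts. There ZNF790, ZNF793 and ZNF540, with 5, 6 and 16 control counts, were also under the filter's cut of 0.426 CPM in every control library. At 19q13.43, 1 gene had no control count. All of these likewise passed through KO counts. These lists were chosen with results known, and the differences between clusters were not tested.

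The promoters of the members shared short words. RefSeq sequences on GRCh38.p14 (250 bases before to 50 after each gene start) matched 31 of the 38 members. All words of 10 bases in these promoters were counted on both strands. The 4 in most members were taken, leaving out those in 5% or more of all promoters or sharing 7 bases with one already taken. The words were chosen on the members and the settings after earlier searches, so the shares are descriptions that change with the word taken. AGGCCCCGCC was in 16 of 31 member promoters (51.6%), in 41 of 374 promoters of other ZNF genes and in 3.13% of 27305 promoters. ACCCGGAAGC was in 13 of 31 (41.9%), in 2.41% of the other ZNF genes and in 0.494% of all. GGAAGCGGAT, which shares 6 bases with it, was in 11 of 31 (35.5%), 0.267% and 0.139%, and CCCGCCCACC in 11 of 31, 0.802% and 1.51%. TATAAA was looked for as well and was in 0 of 31, in 13 of the 374 and in 3264 of all.

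The first and the last of the 4 words stood within 90 bases of the start in 7 members, and they overlap there by 6 bases. The 90 bases just before the start are given from RefSeq GRCh38.p14, 5′ to 3′ on the strand of the gene, for 5 of these, chosen for sharing the words and for differing in how far they rose, so that spread is no result. Capitals mark the words.
ZNF808 (chr19:52527578-52527667, plus strand): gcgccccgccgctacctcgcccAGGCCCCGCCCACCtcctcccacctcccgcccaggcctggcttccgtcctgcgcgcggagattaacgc
ZNF701 (chr19:52570197-52570286, plus strand): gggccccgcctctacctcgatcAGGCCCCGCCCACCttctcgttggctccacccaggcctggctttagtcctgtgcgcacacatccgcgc
ZNF83 (chr19:52690497-52690586, minus strand): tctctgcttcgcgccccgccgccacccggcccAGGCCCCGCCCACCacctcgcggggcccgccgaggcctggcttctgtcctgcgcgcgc
ZNF761 (chr19:53431894-53431983, plus strand): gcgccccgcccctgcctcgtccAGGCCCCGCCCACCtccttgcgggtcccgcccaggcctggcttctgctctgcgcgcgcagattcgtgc
ZNF813 (chr19:53467643-53467732, plus strand): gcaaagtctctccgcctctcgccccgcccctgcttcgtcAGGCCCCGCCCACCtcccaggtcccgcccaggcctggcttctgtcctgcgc
Without gaps, the ZNF808 and ZNF761 stretches were the same at 75 of 90 bases (83.3%), ZNF701 and ZNF761 at 69 of 90 (76.7%), and ZNF808 and ZNF701 at 68 of 90 (75.6%). By the same measure ZNF83 and ZNF813 matched the others and each other at 33.3% to 40.0% (ZNF83 with ZNF701 and ZNF808). AGGCCCCGCC began 68 bases before the start in ZNF808, ZNF701 and ZNF761, but 58 in ZNF83 and 51 in ZNF813. Pairs with ZNF83 or ZNF813 were therefore compared out of register, so their low shares do not show that the stretches are unlike. In control, ZNF808 was at 0.0334% of its KO level, ZNF83 at 0.0666%, ZNF701 at 0.530%, ZNF813 at 4.16% and ZNF761 at 29.3%. AGGCCCCGCC was in 11 of the 16 matched members that rose at least 16-fold and in 3 of the 7 that rose under 4-fold.

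H3K9me3 peaks covered 93.6% of the window in control cells and 7.05% in KO cells. The covered length went from 2154 kb in 65 peaks to 162 kb in 54 peaks, 13.3-fold less. On all of chromosome 19 coverage went from 32.1% to 8.199%, and over the genome it was higher in KO, at 20.5% against 11.3%. There is 1 peak list per mark and genotype, so peak values have no replicate error, and the number of peaks found moves with depth and enrichment, which the lists do not hold. The 3 widest control peaks in the window were 242, 234 and 224 kb wide (chr19:52314494-52556209, chr19:54042587-54276199 and chr19:52773858-52998065). The 3 widest KO peaks were 13.6, 7.95 and 5.97 kb wide. All 54 KO peaks overlapped a control peak, although 5.56% did with reciprocal overlap of 50%. Control peaks covered most of the window, so nearly any peak there would overlap one. The reciprocal share is limited by width, as the median peak was 13550 bp wide in control and 2306 bp in KO. Neither share therefore shows whether control sites were kept. Among the wider 50% of each list the log2 ratio of covered length was -5.09, against -3.73 for all peaks.

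Per 100 kb bin, H3K9me3 covered 68.5% to 100% in control and 0% to 35.5% in KO, and it was lower in all 23 bins. In 11 bins no H3K9me3 peak was left in KO cells. What was left lay mostly towards both ends and in the bins 1.7 and 1.8 Mb from the window start.

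The other histone marks covered more of the window in KO. H3K27me3 went from 5.68% to 23.7% of the window, a log2 ratio of 2.06, or 3.43 with the window narrowed by 200 kb at each end, while over the genome it went from 12.2% to 9.37%. H3K27ac went from 2.01% to 11.0% (27 to 119 peaks) and H3K4me3 from 3.61% to 13.7% (45 to 173 peaks). Their genome shares were 3.59% and 3.96% for H3K27ac, and 3.28% and 3.77% for H3K4me3. H3K4me3 was higher in 22 of 23 bins and H3K27ac in 19. By bin, the coverage by active marks and by H3K27me3 varied, with no test made. The bin 1.4 Mb from the start had the most H3K4me3 and H3K27ac, with 41.6% H3K4me3, 33.3% H3K27ac and 4.72% H3K27me3 in KO. The bin at 1.7 Mb had 3.41%, 0% and 72.4%, and it kept the most H3K9me3 (35.5%). Other bins held both kinds of mark. The bin at 0.2 Mb had 64.7% H3K27me3 with 12.9% H3K27ac and 7.50% H3K4me3. Those at 1.6 and 1.8 Mb had 28.8% and 29.3% H3K27me3 with 16.8% and 12.6% H3K4me3, and 7.53% and 7.74% H3K27ac. The KO medians over the bins were 11.1% for H3K4me3 and 7.74% for H3K27ac. In none of these bins were both active marks above their medians.

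**Figure D2:**
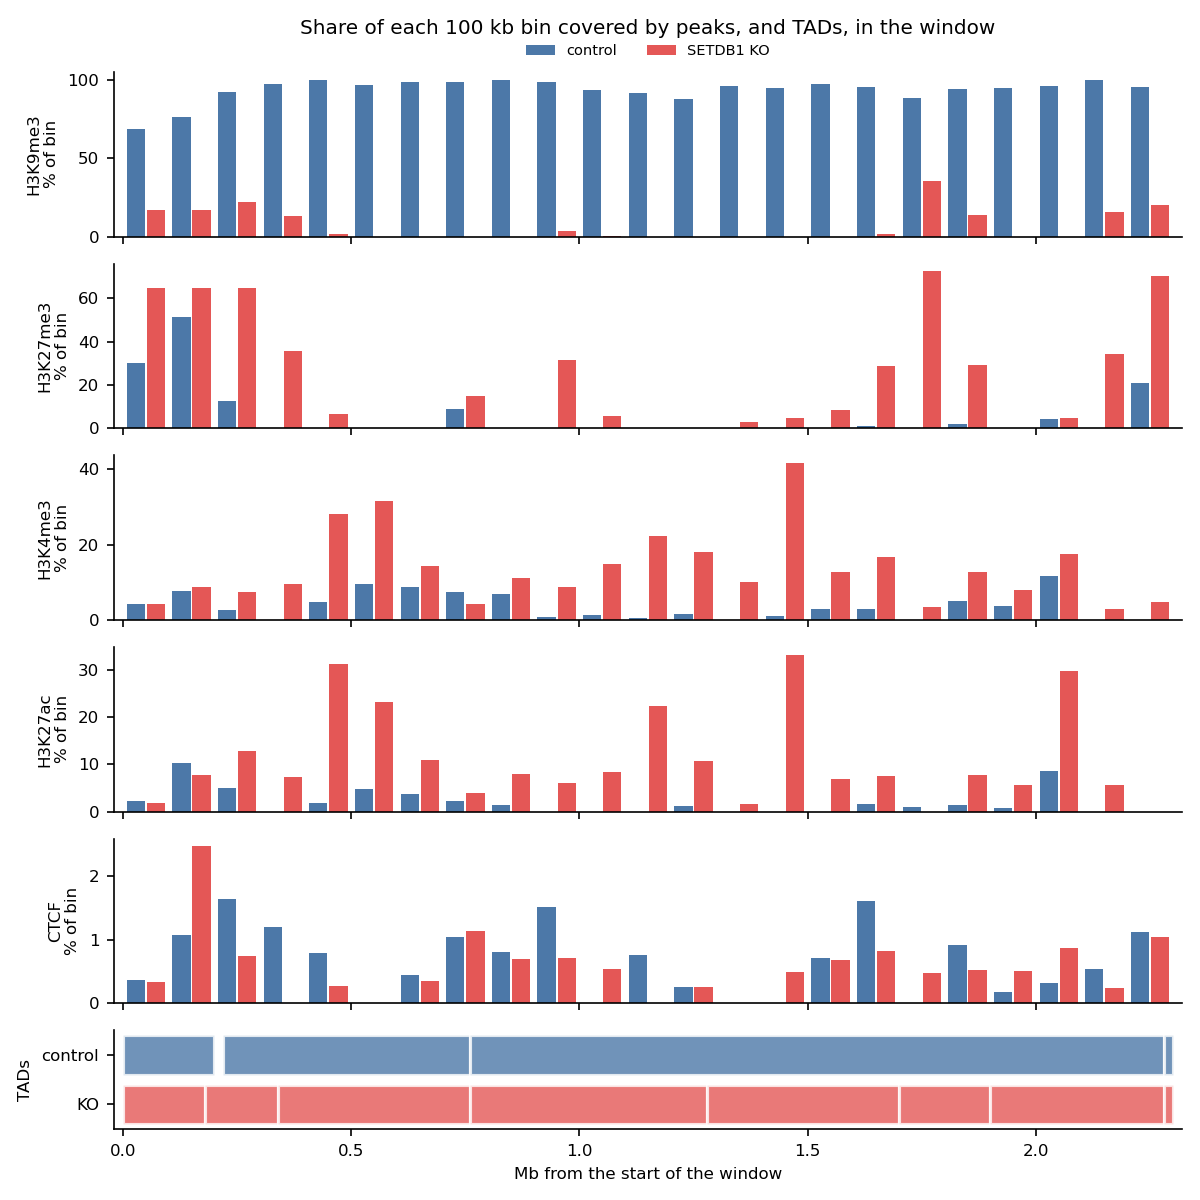
Share of each 100 kb bin of the window covered by peaks of the 5 marks in control (blue) and SETDB1 KO (red) cells, against Mb from the window start, with the TADs of each genotype as bars at the bottom, cut at the window edges. H3K9me3 is lower in all 23 bins in KO, and H3K4me3 is higher in 22.

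Of the control H3K9me3 length in the window, 92.5% had no H3K9me3 peak in KO, against 79.3% on chromosome 19 and 62.3% over the genome. On this lost length, H3K27me3 covered 4.37% in control and 18.01% in KO, H3K4me3 3.496% and 14.8%, and H3K27ac 1.45% and 11.9%. Any of these marks or CTCF covered 8.71% in control and 36.02% in KO, so 64.0% of the lost length carried no peak of the other lists. Over the genome, H3K27me3 on lost length went the other way, from 29.9% to 25.5%.

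**Figure D3:**
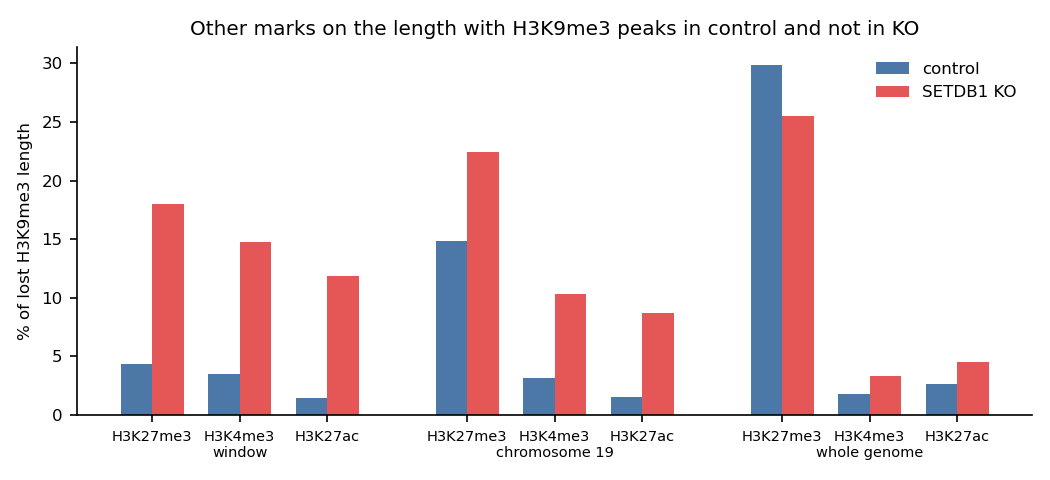
Share of the length with H3K9me3 peaks in control but not in KO that was covered by H3K27me3, H3K4me3 and H3K27ac peaks in control (blue) and KO (red), for the window, chromosome 19 and the genome. In the window all 3 marks cover more in KO, H3K27me3 going from 4.37% to 18.01%.

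Of the 136 H3K4me3 peaks found in KO only, 133 touched lost H3K9me3, as did 94 of 95 such H3K27ac peaks. The lost length is most of the window, so nearly any peak there would touch it. Counting only whole control H3K9me3 peaks without a KO peak, 57.4% of the H3K4me3 and 47.4% of the H3K27ac peaks did. The widest KO-only H3K4me3 peak was 16.5 kb wide (chr19:53435537-53452068), and the next 4 were 4.43 to 5.23 kb wide. H3K27ac in KO overlapped 61 of the 136 KO-only H3K4me3 peaks (44.9%, 95% Wilson interval 36.8% to 53.2%) and 36 of the 37 present in both genotypes (97.3%, 86.2% to 99.5%). H3K27me3 overlapped 26 of 136 and 2 of 37. The intervals cover counting error only. Which gene each peak belongs to was not examined, since no gene annotation on GRCh37 was used here.

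CTCF peaks went from 55 to 39 in the window, while the genome lists went from 23875 to 34419. Only 10 peaks of each list overlapped, which is 18.2% of the control peaks (95% Wilson interval 10.2% to 30.3%) and 25.6% of the KO peaks (14.6% to 41.1%). Over the genome these shares were 55.8% and 38.6%.

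The compartment signal rose in all 23 bins of 100 kb in the window (limma, Benjamini-Hochberg adjusted p at most 2.8e-05), against 21.6% of 26496 bins genome-wide. In 21 bins its sign went from negative to positive, here called B to A (5.87% of all bins). All 23 were negative in control, and of the 11865 bins negative in control genome-wide 1556 became positive, as did 42 of 149 (28.2%) on the rest of chromosome 19. In the window the same 21 did so in every replicate (5.01%). Averaged over the window, the signal was -1.08 and -1.12 in the control replicates and 0.212 and 0.213 in the KO replicates. The rise per bin ran from 0.375 to 1.78, with a median of 1.38. On the rest of chromosome 19 the mean went from 0.0689 to 0.217, and 10.6% of bins went from B to A. The sign is as deposited, and how it was oriented is not given in the sources used here.

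The bins that changed sign were contiguous, at chr19:52200001-54300000. The 3 largest rises were at 1.5, 1.4 and 1.0 Mb from the window start, by 1.78, 1.77 and 1.72. In the first of these the replicates were at -1.32 and -1.36 in control and 0.394 and 0.495 in KO. Of the 23 bins, 11 were among the 100 largest rises of the genome. The first 2 bins rose least, by 0.375 and 0.408, and their mean signal stayed below 0. These are also the bins with the lowest control H3K9me3 coverage, 68.5% and 76.4%, of which 16.7% and 17.0% of the bin was left in KO. They had the highest control H3K27me3 coverage of the window as well, 29.9% and 51.3%. A link between any mark and the size of the rise was not tested.

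**Figure D4:**
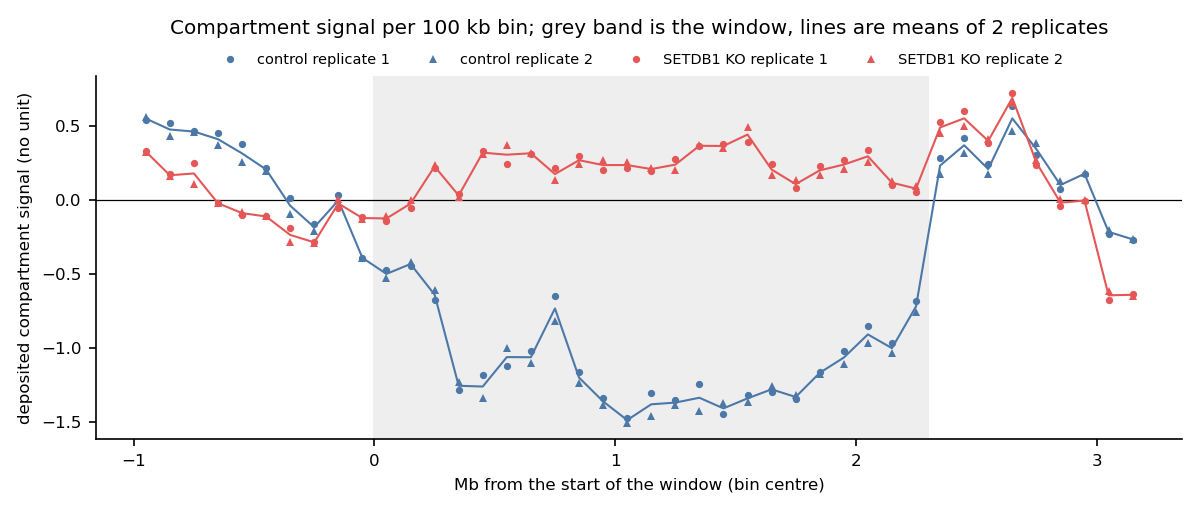
Deposited compartment signal per 100 kb bin in 2 control (blue) and 2 SETDB1 KO (red) Hi-C replicates, against Mb from the window start, with flanks on both sides. Lines are means and the grey band is the window, in which 21 of 23 bins go from below to above 0.

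Topologically associating domains (TADs), stretches that contact themselves more than their surroundings, were also divided further in KO. The window met 4 TADs in control and 8 in KO, from 1 list per genotype without replicates. The longest control TAD, of 1520 kb, was matched in KO by 4 TADs of 520, 420, 200 and 380 kb with the same outer edges. Of the 6118 control TADs, 3.35% were as long, and the median TAD was 300 kb in both genotypes. The 3 inner edges lay 380 to 580 kb from the nearest control edge. Within 20 kb of them CTCF peaks numbered 0 in control, and 0, 3 and 0 in KO. A further KO edge, at position 52340000, lay 120 kb from the nearest control edge. It had 2 CTCF peaks within 20 kb in control and 0 in KO.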

How the data were processed

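RNA-seq, ChIP-seq and Hi-C of 40 samples were grouped by their labels. Raw counts, whole numbers per gene, made up the deposited RNA-seq table. Peak and TAD lists deposited by the authors held positions only, and compartments were deposited as a signed score for every bin in each replicate. Per the submitters' processing notes, hg19, STAR 2.6.1c, edgeR 3.30.0, Bowtie2 2.2.3, SAMtools 1.5, Picard and MACS2 were used; how each was set is not given in the sources used here. Input libraries were not used here, and 0 columns went unmapped.

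Of 62486 gene identifiers, 58642 (93.8%) matched a symbol. The count test was edgeR 4.0.16 under R 4.3.3, using a robust quasi-likelihood fit of genotype after filterByExpr and TMM, and compartments were tested with limma 3.58.1 on replicate columns, both adjusted by Benjamini-Hochberg at 0.05. Peaks were compared in Python 3.11.15 with numpy 2.4.6 at an overlap of at least 1 bp. A floor of 3 counts over the group and 95% intervals cover counting error only. No libraries were merged as duplicates.

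The fits were tested on simulated data. With dispersions taken from the fitted trend the share of false RNA-seq calls was under the threshold of 0.05. In the simulation tried first, with a dispersion estimated for each gene, it was above 0.05, so adjusted p-values near the threshold may be too small; both simulations are kept.

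The members and lists were chosen with earlier results of these data known. Values by library are given for the 10 members with the largest fold change among those called, and for ZNF28 and ZNF320. Neighbouring genes were taken by RefSeq order. Members were not grouped by protein domains, since protein sequences were not used here. Alternatives were DESeq2 1.42.0 and limma voom in place of edgeR, different scaling and filtering, blocking by replicate number, dropping single replicates, and changed overlap and window rules.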

Additional observations from a re-analysis of the deposited data

How the results depend on the processing

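In every RNA-seq alternative each tested member kept its direction and its side of the adjusted p threshold of 0.05. The 546 RNA-seq values also hold counts and medians, which stayed within a set tolerance. So did the 22 compartment values, all of them counts of bins. The number of bins going from B to A was 21, but 22 without KO replicate 1 and 19 with the window narrowed by 200 kb at each end. The 2-fold line was crossed: of the members, 31 were at least 2-fold higher, but 30 with upper quartile scaling, 32 with library size only, 34 with no filter, and 30 to 32 leaving out a replicate. ZNF160 fell below it and ZNF845 rose above it in some of these. The 35 members were higher in each, or 37 with no filter on low counts, including the replicate block. Same-numbered libraries deviated together with correlations of 0.169, 0.103 and 0.0616, and pairs with different numbers with -0.171 to 0.0829. These values do not settle whether the numbers pair samples. The labels do not say that they do, so the block was kept as an alternative. With the block, 11655 genes were called over all, against 11157 without it, and the Hi-C replicate block changed no call.

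Of 71 peak alternatives, 19 moved a value. With reciprocal overlap of at least 50%, shared peaks made up 6.15% of control and 5.56% of KO H3K9me3 peaks, 17.0% and 10.5% of H3K27me3, 51.9% and 11.8% of H3K27ac, and 40.0% and 10.4% of H3K4me3. With the wider 50% of each list, the H3K9me3 log2 ratio of covered length was -5.09 and its control share 11.9%, and the H3K4me3 KO share was 28.7%. With the window narrowed by 200 kb at each end, the ratio was -4.29 for H3K9me3 (control share 27.5%) and 3.43 for H3K27me3 (shares 66.7% and 15.4%). With whole control H3K9me3 peaks lacking a KO peak in place of lost length, chosen after seeing the data, 57.4% of KO-only H3K4me3, 47.4% of H3K27ac and 34.5% of CTCF peaks touched it. The cause was not tested. Fold changes of members with 0 to 3 control counts are limited by depth.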

Other observations

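Genes lying between the outermost members, other than the members, were also counted. Of 62 such RefSeq entries, 28 were in the table and 15 could be tested, of which 14 were higher in KO (edgeR, adjusted p under 0.05) and 0 were lower, against 32.8% and 30% of all tested genes. Of the 15, 7 had no control count and 2 had 1 to 3, so these passed the low-count filter only through KO counts and had to differ. TPM3P6 (0.170, 0.110 and 0.0687 CPM in control) and RPL39P36 (0.425, 0.166 and 0.447 CPM) also passed through KO counts. Neither reached the filter's cut of 0.426 CPM in every control library. The others were ZNF350-AS1, PPP2R1A, TPM3P9 and NDUFV2P1. ERVV-1 and ERVV-2, envelope genes of endogenous retroviruses, had 0 counts in control and were at 4.67 ± 1.08 and 4.05 ± 0.172 CPM in KO (SD, n = 3). The zinc finger pseudogenes ZNF321P, ZNF818P and ZNF137P also had 0 control counts and reached 9.23, 7.35 and 5.34 CPM, and ZNF702P went from 0.0115 to 9.88 CPM. ZNF528-AS1 and ZNF888-AS1, antisense to members that rose, reached 13.3 and 2.23 CPM from 0. The counter's strand setting is not given in the sources used here, so reads of a member and its antisense gene may not be told apart.

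PPP2R1A, the scaffold subunit of protein phosphatase 2A, is not a zinc finger gene and was at 195 ± 8.92 CPM in control and 251 ± 11.6 CPM in KO (log2 fold change 0.37, SE 0.045, edgeR adjusted p 4.4e-08). The pseudogene TPM3P9 went from 18.6 ± 1.41 to 43.1 ± 3.32 CPM. The 1 tested neighbour not called was the pseudogene NDUFV2P1, at 1.53 ± 0.346 CPM in control and 1.18 ± 0.0374 CPM in KO (-0.42, SE 0.20, edgeR adjusted p 0.0737).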
